A study of Homo sapiens with 6 samples.

Results

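ACRO1, SAR, HSATI, CER, HSAT4 and LSAU are 6 minor families of human satellite DNA, measured here as RNA and as DNA in the colon cancer cell line SW620. Their loci were chosen by name: every row of the authors' table of satellite loci whose RepeatMasker family is one of these 6, with no use of the measured values. They comprise 407 of the 9566 loci of 24 families in the table, of which ACRO1 has 61, SAR 1, HSATI 45, CER 72, HSAT4 99 and LSAU 129. Of these 407 loci, 73 held no read in any library.

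SW620 is an established colon cancer line grown from a metastasis in a lymph node. Per the labels, 3 stages were sampled: 2D culture in RPMI1640 with 10% FBS before xenografting, tumours grown under the skin of the Nu/Nu mouse, and 2D culture in the same medium afterwards. Nu/Nu mice lack a thymus and its T cells and keep other immune cells. The labels give no treatment, no number of mice and no time in culture. RNA and DNA were each sequenced at the 3 stages on the Helicos platform, which reads single molecules, so each group is 1 library and no comparison below has a replicate check or a p-value.

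Satellites are tandem repeats that lie in and around centromeres, on the short arms of the acrocentric chromosomes and near chromosome ends, mostly within heterochromatin. SAR and HSATI are RepeatMasker's names for forms of the AT-rich human satellite I, ACRO1 was described from acrocentric short arms, CER and HSAT4 are pericentromeric repeats, and LSAU is a GC-rich repeat that accompanies beta satellite and is part of the D4Z4 macrosatellite of the chromosome 4 and chromosome 10 long-arm ends. Most acrocentric short arms and large satellite arrays are not assembled in hg19, the build of the table, so 1 listed locus can collect reads from many copies. No sequence is printed here, because no hg19 genome was used.

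Levels are in RPM, the reads counted at a locus per 1000000 reads of its library. The values were whole multiples of 1 read, and the reads recovered from them are called hits. Library totals were 157326, 1077925 and 240046 reads for RNA before, in the xenograft and after, and 4355426, 3231173 and 3080853 reads for DNA. With 3 reads as the limit that a count of 0 allows, an empty locus or family could hold up to 19.1, 2.78 and 12.5 RPM in the 3 RNA libraries, and up to 0.689, 0.928 and 0.974 RPM in the 3 DNA libraries. All ranges in parentheses are 95% exact intervals from these hits. They cover counting error only and hold no spread between cultures or animals. Of 221 loci of the 6 families with 5 or more hits in all, 28 (12.7%) had the same values in every library as another locus of their family, so a read that matches several loci may have been counted at each, and the intervals are then too narrow.

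The DNA library from culture before xenografting stood apart from the other DNA libraries. All satellites together took 0.854% of its reads, against 9.88% in the xenograft and 10.4% in culture after. Comparisons that rest on this library carry that difference, and the DNA comparison of culture after with the xenograft does not use it. In RNA, all satellites took 0.504%, 7.29% and 1.30% of the reads in the 3 stages. What set these shares was not tested. To separate a family from the satellites as a whole, many ratios are also given relative to the other 18 families. The summed ratios of those 18 families were 15.1 in RNA and 11.6 in DNA for the xenograft over culture before. They were 0.179 and 1.05 for culture after over the xenograft, and 2.71 and 12.2 for culture after over culture before.

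The description of these families as acrocentric and pericentromeric was checked against the positions in the table. Loci on chromosomes 13, 14, 15, 21 or 22 made up 11.5% of the 6 families (47 of 407) and 5.61% of the other loci. They were 30 of 45 HSATI loci, 12 of 72 CER loci and 5 of 61 ACRO1 loci, and none of the SAR, HSAT4 or LSAU loci. These counts take whole chromosomes and do not tell short arms from long arms, so they do not place a family on acrocentric short arms. The HSATI loci of chromosome 22 lay between 18684892 and 32767571. Contigs not placed in a chromosome held 30.7% of the member loci and 4.80% of the others. Of the placed loci, 28 of 44 ACRO1, 30 of 44 CER, 77 of 99 HSAT4, 11 of 41 HSATI and 16 of 53 LSAU loci, and the SAR locus, lay within 1 Mb of an alpha satellite locus of at least 1 kb. By the positions listed, most ACRO1 loci and all HSAT4, LSAU and SAR loci lie outside the acrocentric chromosomes or on unplaced contigs. Within 10 kb, 59 of 129 LSAU loci had a beta satellite neighbour (BSR/Beta), 49 of 99 HSAT4 loci had alpha satellite, and 23 and 19 of 61 ACRO1 loci had GSATII and TAR1.

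In the xenograft, SAR and ACRO1 carried most of the RNA and DNA of the 6 families. The summed RNA of the 6 families was 369, 2363 and 391.6 RPM in culture before, the xenograft and culture after. Xenograft RNA was thus 6.41 times that of culture before (4.94–8.47), and culture after held 0.166 times the xenograft level (0.133–0.204). Culture after and culture before were not separated by counting error in RNA, with a ratio of 1.06 (0.758–1.50), but culture after was lower under TMM scaling, at 0.590 (0.421–0.833), and with DESeq2 size factors, at 0.559 (0.399–0.789). The summed DNA was 348, 3984 and 3857 RPM at the same stages, and its ratio of culture after to the xenograft was 0.968 (0.944–0.993), an interval that held 1 under TMM scaling (0.986–1.04), with size factors (0.989–1.04) and with identical loci counted once (0.951–1.001). The 6 families did not move together: the RNA ratio of culture after over the xenograft ran from 0.00533 for SAR to 1.84 for HSAT4.

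Scaling bears on the directions in DNA. TMM scaling, which centres the ratios of most satellite loci, moved the log2 ratio of the xenograft over culture before by -3.04 in DNA and -0.17 in RNA, and that of culture after over the xenograft by 0.06 and -0.67. The values that follow are on the authors' RPM scale, and flips of whole-family ratios under TMM are named. Ratios of chromosomes, contigs and arrays, or with a chromosome left out, are on the RPM scale only. In DNA of the xenograft over culture before, such a ratio falls below 1 under TMM if its log2 is below the size of that DNA shift. This holds for CER on chromosome 22 (5.70), the HSAT4 array on chromosome 19 (2.72) and LSAU on Un_gl000225 (7.84).

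**Figure D1:**
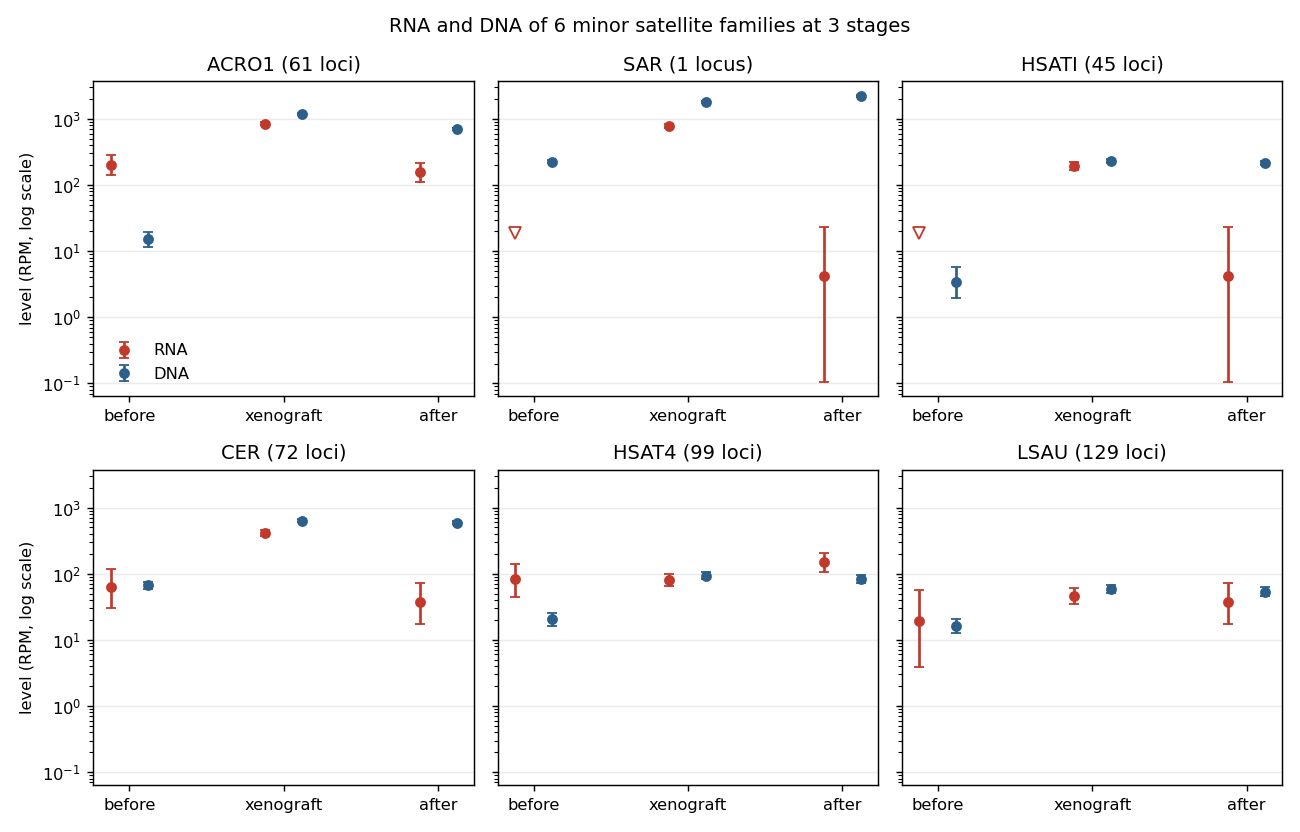
RPM of each of the 6 families (log scale) in culture before, the xenograft and culture after, for RNA and for DNA. Points are single libraries with exact Poisson 95% intervals, and triangles mark the 3-read limit of libraries without a hit. SAR and HSATI RNA had hits almost only in the xenograft library, whereas HSAT4 RNA was at 82.6, 81.6 and 150 RPM.

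SAR has a single locus in the table, 4775 bp on the plus strand of chromosome 8 (43092746 to 43097520). Its RNA had 0, 843 and 1 hits in culture before, the xenograft and culture after, or 0, 782 and 4.17 RPM. Its DNA had 986, 5770 and 6811 hits, or 226, 1786 and 2211 RPM. RNA hits were thus almost all in the xenograft library, while DNA was highest in culture after. SAR RNA was at least 41.0-fold higher in the xenograft than in culture before (lower limit 33.3), and culture after held 0.00533 times the xenograft level (0.000135–0.0298). Relative to the other 18 families this RNA ratio of culture after to the xenograft was 0.0297 (0.000752–0.166), so SAR was lower than those families as a whole by more than counting error. Without alpha satellite among those families, an alternative added after seeing the data, it was 0.0142 (0.00036–0.0797). Singly, 17 of the other 18 families had an RNA ratio of culture after to the xenograft, from 0.000603 to 4.49. The lowest lay below that of SAR. Intervals lay below 1 for 9 families and above 1 for 4. HSATII RNA was at 0.0671, 24.3 and 0.0147 RPM per kb of listed sequence in culture before, the xenograft and culture after. On that scale (CATTC)n was at 0.0524, 5.61 and 0.149, and (GAATG)n at 0.0585, 5.51 and 0.0863. A peak in xenograft RNA was thus not particular to SAR.

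In DNA, SAR was 7.89 times as high in the xenograft as in culture before (7.37–8.45), or 0.962 times under TMM scaling (0.899–1.03). The ratio on the RPM scale was 0.681 times that of the other 18 families (0.636–0.730), or 0.911 times without alpha satellite among them (0.849–0.978). SAR DNA was 1.24 times as high in culture after as in the xenograft (1.195–1.28). It was the only 1 of the 6 families whose DNA was higher in culture after than in the xenograft, and relative to the other 18 families the ratio was 1.17 (1.13–1.22). Per kb of listed sequence, SAR ranked 1 of 24 families in DNA at every stage, with 47.4, 374 and 463 RPM per kb. It also ranked 1 in xenograft RNA, with 163.8 RPM per kb. These ranks follow from a short listed length as well as from the reads, and the true copy number of SAR was not used here.

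HSATI resembled SAR in RNA. Its 45 loci are short, and 27 of them lie on chromosome 22. Its RNA had 0, 207 and 1 hits in culture before, the xenograft and culture after, or 0, 192 and 4.17 RPM, and its DNA had 15, 742 and 665 hits, or 3.44, 230 and 216 RPM. RNA in the xenograft was 10.1 times the 3-read limit of culture before, and the exact lower limit of that ratio was 8.12. Culture after held 0.0217 times the xenograft level (0.000547–0.122), which was 0.121 times the ratio of the other 18 families (0.00305–0.683). The limit of 3 reads in culture before was 19.1 RPM, so a low HSATI level there was not detectable at this depth. DNA was 66.7 times as high in the xenograft as in culture before (40.2–120), which was 5.76 times the ratio of the other 18 families (3.47–10.3). An alternative added after seeing the data took each array, meaning loci less than 50 kb apart, at its highest locus only, which limits the sharing of reads. There, RNA in the xenograft was 3.75 times the 3-read limit of culture before, and the DNA ratio was 37.9. Culture after and the xenograft were not separated in DNA, at a ratio of 0.940 (0.845–1.05).

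Chromosome 22 carried most HSATI reads. Its 27 loci had 0, 176 and 0 RNA hits in culture before, the xenograft and culture after, and 8, 622 and 560 DNA hits. The xenograft over culture before ratio of DNA was 105 on chromosome 22, which was 4.54 times that of the other HSATI loci (1.37–14.6). The contig Un_gl000212 held 4 loci with 0, 24 and 0 RNA hits and 4, 88 and 79 DNA hits. Its RNA was not separated between the xenograft and culture before (lower limit of the ratio 0.878). Reads were spread over many loci: the locus with the most RNA hits, 567 bp on chromosome 22 (18881632 to 18882198), had 11.1 RPM of RNA in the xenograft and no hit in the culture libraries. The 3-read limits of 19.1 RPM in culture before and 12.5 RPM in culture after lie above that level. RNA of single HSATI loci was thus not separated between stages. DNA of the locus at 18881632 to 18882198 was at 0.230, 11.8 and 8.76 RPM in the 3 stages. The locus at 20326189 to 20326749 had 10.2 RPM of RNA in the xenograft, and the locus at 18721212 to 18721777 had 9.28 RPM. The locus of Un_gl000212 at 40458 to 41024 had 0.230, 12.1 and 12.7 RPM of DNA, the highest xenograft DNA value of the HSATI loci named here. The longest locus, 568 bp at 23828857 to 23829424 of chromosome 22, had 2.17 RPM of DNA and 1.86 RPM of RNA in the xenograft. Thus the HSATI total came from many loci, none of which reached 20 RPM, and 6 of its 34 loci with 5 or more hits had a locus with identical values.

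ACRO1 had more RNA hits than any other of the 6 families over the 3 stages together, and its DNA differed between the xenograft and culture after. Its RNA had 32, 915 and 38 hits in culture before, the xenograft and culture after, or 203, 849 and 158 RPM. Its DNA had 66, 3823 and 2177 hits, or 15.2, 1183 and 707 RPM. RNA was 4.17 times as high in the xenograft as in culture before (2.94–6.14). That was 0.276 times the ratio of the other 18 families (0.193–0.410), or 0.535 times (0.370–0.799) without alpha satellite among them. Culture after held 0.186 times the xenograft RNA (0.131–0.258), or 1.04 times the ratio of the other 18 families (0.730–1.44). Without alpha satellite this relative ratio was 0.499 (0.349–0.693).

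ACRO1 DNA was 78.1 times as high in the xenograft as in culture before (61.2–101), 6.74 times the ratio of the other 18 families (5.29–8.74). In culture after it held 0.597 times the xenograft level (0.566–0.630), and 0.566 times relative to the other 18 families (0.537–0.597). This is the largest difference between those libraries among the 6 families, and it does not use the DNA library that stood apart. Per kb of listed sequence, ACRO1 ranked 13, 3 and 3 of 24 families in DNA, with 0.334, 26.0 and 15.6 RPM per kb in culture before, the xenograft and culture after.

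**Figure D2:**
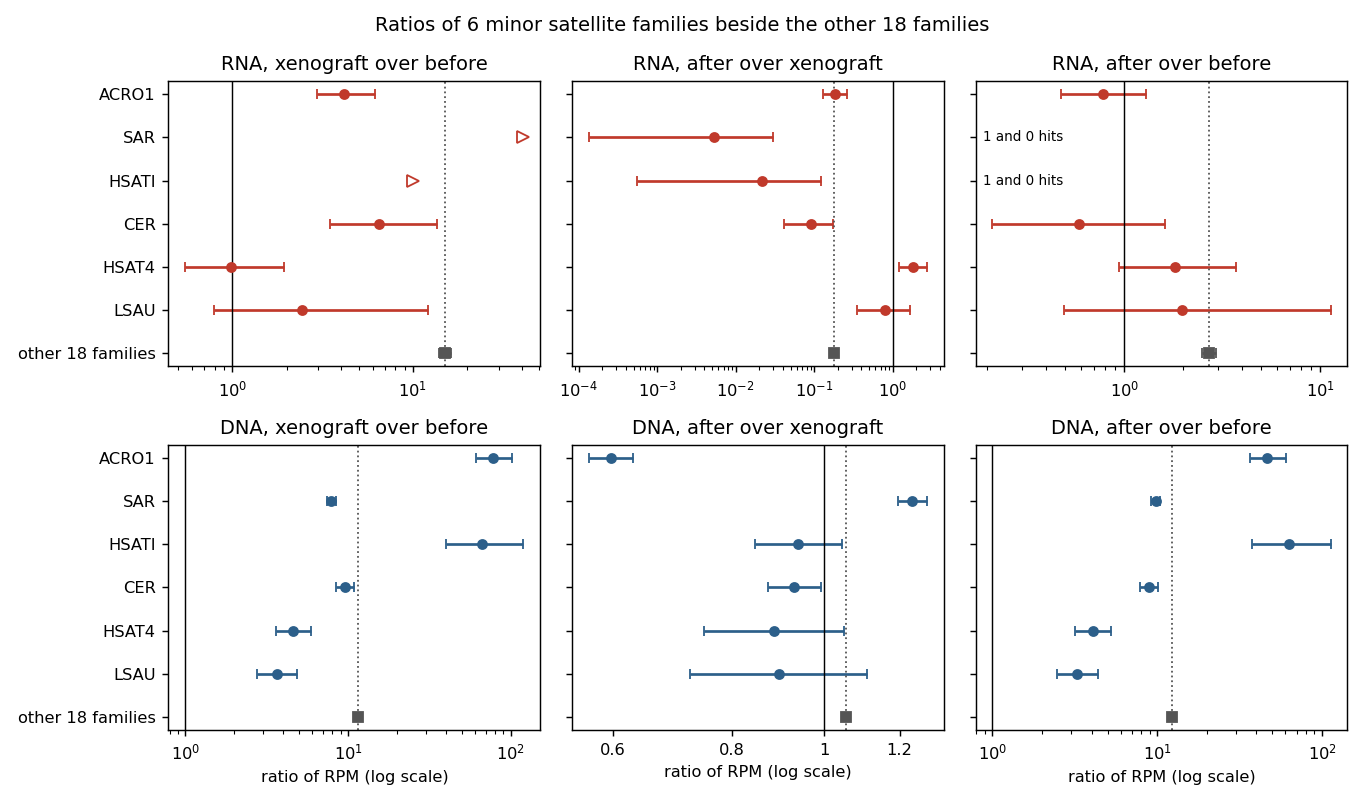
Ratio of RPM (log scale) of each family for the 6 comparisons, RNA above and DNA below. Points carry exact conditional binomial 95% intervals, open triangles are lower bounds against a library with 0 hits, the solid line marks 1 and the dotted line the summed ratio of the other 18 families, drawn as grey squares. In DNA of culture after over the xenograft, ACRO1 lies at 0.597 and SAR at 1.24.

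The ACRO1 loci fall into a long class of 24 loci between 1117 and 2305 bp and a short class of 37 loci between 130 and 702 bp. This division was chosen after the values were seen and is given as a description. The long loci had 28, 833 and 14 RNA hits in culture before, the xenograft and culture after, and 65, 3461 and 1844 DNA hits. The short loci had 4, 82 and 24 RNA hits, and 1, 362 and 333 DNA hits. The DNA difference between culture after and the xenograft lay in the long loci, at a ratio of 0.559 (0.528–0.591), against 0.965 (0.829–1.12) in the short ones. All 24 long loci were below 1, between 0.479 and 0.874, and for 20 of them the interval lay below 1. The long loci may share reads, so their agreement is not repeated evidence. The 2 long loci of chromosome 4 that start at 49281431 and 49331561 had identical values in every library. Of the 21 short loci with at least 20 DNA hits in both libraries together, 11 were above 1 and 10 below.

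The classes also differed in the RNA of culture after. The 14 hits of the long loci were 0.0755 times the xenograft level (0.0411–0.127) and 0.328 times that of culture before (0.159–0.644). The 24 hits of the short loci lay 1 each on 24 loci. They could be 1 read counted 24 times or 24 reads, which the table cannot tell apart, and 24 of the 38 RNA hits behind the ACRO1 level after xenografting rest on them. With the long loci only, ACRO1 RNA in culture after was below that in culture before, whereas over all loci the interval of that ratio held 1 (0.778, 0.473–1.29). Under TMM scaling the ratio over all loci was 0.432 (0.263–0.715).

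**Figure D3:**
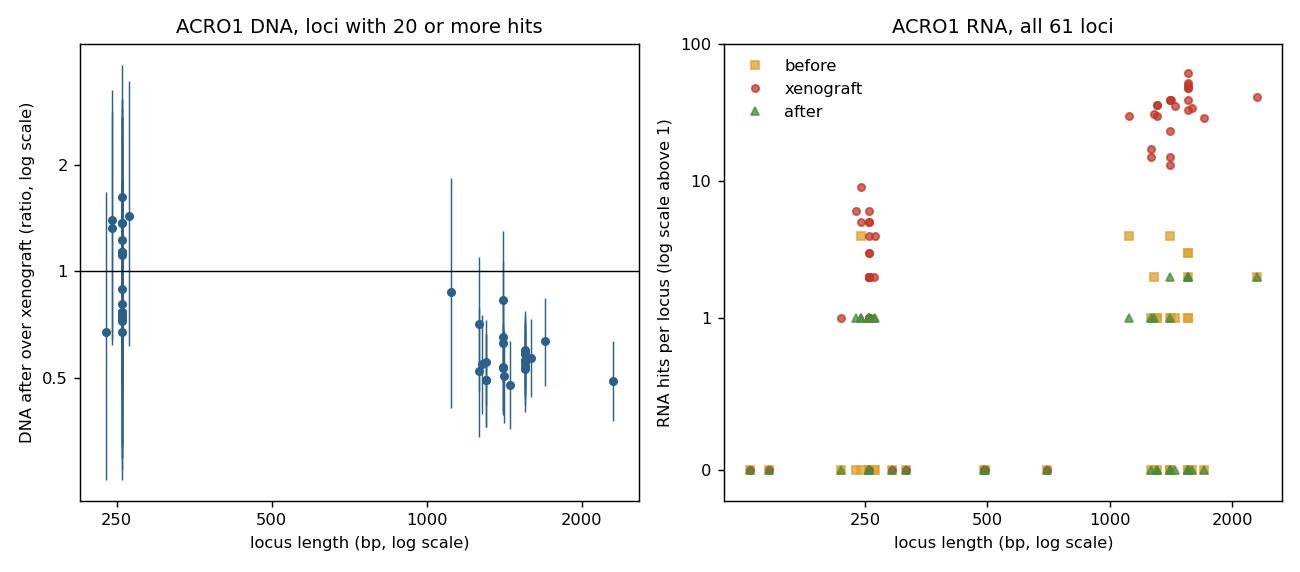
ACRO1 loci by length in bp (log scale). Left, DNA ratio of culture after over the xenograft (log scale, 95% intervals) for loci with 20 or more hits in both libraries together; right, RNA hits per locus in each stage. All 24 loci of 1117 bp or more lie below 1, and the shorter loci lie on both sides of it, and the RNA hits of the shorter loci in culture after are 1 each.

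Chromosome 4 held 20 ACRO1 loci, which had 63.6, 337 and 49.99 RPM of RNA in the 3 stages and 6.199, 474 and 268 RPM of DNA. Of these, 18 formed an array between 49281431 and 49332866, and the longest ACRO1 locus, 2305 bp at 49324516 to 49326820, belongs to it. That locus had 12.7, 38.0 and 8.33 RPM of RNA and 0.918, 58.8 and 28.9 RPM of DNA. The contigs Un_gl000224 and Un_gl000214 held 7 loci each, with 2.98, 237 and 138 RPM of DNA on Un_gl000224 and 2.98, 228 and 140 RPM on Un_gl000214 in the 3 stages. On Un_gl000224, the locus at 4597 to 6152 had 12.7, 56.6 and 8.33 RPM of RNA and 1.15, 74.0 and 43.5 RPM of DNA in the 3 stages, the highest xenograft values of any ACRO1 locus. Its neighbour at 17234 to 18789 had 6.36, 46.4 and 0 RPM of RNA and 0.918, 71.2 and 39.9 RPM of DNA. DNA ratios of the xenograft over culture before lay between 65.4 and 79.3 on the 6 chromosomes and contigs that held at least 10% of the family's hits in a library. None differed from the other ACRO1 loci by more than counting error. Loci on these chromosomes and contigs may share reads, so the 6 ratios are not independent.

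As a sum, ACRO1 on chromosome 21 differed from the other ACRO1 loci in RNA. Its 5 loci had 69.9, 84.4 and 24.995 RPM of RNA in culture before, the xenograft and culture after, and 0.918, 71.8 and 49.3 RPM of DNA. The RNA ratio of the xenograft over culture before was 0.211 times that of the other ACRO1 loci (0.0939–0.502). Most of its culture before hits lay in an array of 2 loci (9829744 to 9831446). That array had 8, 39 and 2 RNA hits and a xenograft over culture before ratio of 0.712 (0.328–1.76). The array of 3 loci at 9695024 to 9700051 had 3, 52 and 4 RNA hits and a ratio of 2.53 (0.819–12.7). The locus at 9698496 to 9700051 had 19.1, 44.5 and 8.33 RPM of RNA and 0.918, 55.7 and 32.5 RPM of DNA. A second locus, at 9830330 to 9831446, was chosen after its values were seen: its RNA over DNA ratio in the xenograft was 4.996 (2.70–9.52), against 0.717 (0.667–0.771) for the family.

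CER is a family of a few very long loci and many short ones. Its RNA had 10, 444 and 9 hits in culture before, the xenograft and culture after, or 63.6, 412 and 37.5 RPM. Its DNA had 289, 2042 and 1811 hits, or 66.4, 632 and 588 RPM. RNA was 6.48 times as high in the xenograft as in culture before (3.49–13.6), and culture after held 0.0910 times the xenograft level (0.0413–0.174). Both CER ratios were below those of the other 18 families, at 0.429 (0.230–0.905) and 0.508 (0.231–0.974) of them. DNA was 9.52 times as high in the xenograft as in culture before (8.42–10.8), or 1.16 times under TMM scaling (1.03–1.32) and 1.07 times with size factors (0.945–1.21). Culture after held 0.930 times the xenograft level of DNA (0.873–0.991), an interval that held 1 under TMM scaling (0.972, 0.912–1.04), with size factors (0.974, 0.914–1.04) and with identical loci counted once (0.938, 0.880–1.001). Relative to the other 18 families, these DNA ratios were 0.822 (0.726–0.934) and 0.882 (0.827–0.940). Without alpha satellite among the other families, 3 of these relative values changed their reading: the RNA ratio of the xenograft over culture before became 0.831 (0.443–1.76), and both DNA ratios of the xenograft over culture before and of culture after over the xenograft held 1, at 1.10 (0.971–1.25) and 0.956 (0.896–1.02).

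The 3 longest CER loci hold 49.1% of the family's listed length. They took 48.9% of its RNA hits and 35.5% of its DNA hits in the xenograft. The longest, 105129 bp on the minus strand of chromosome 14 (19215371 to 19320499), had 6.36, 84.4 and 0 RPM of RNA and 10.8, 90.7 and 87.3 RPM of DNA in the 3 stages. The next, 101305 bp on the minus strand of chromosome 22 (16506892 to 16608196), had 0, 83.5 and 4.17 RPM of RNA and 12.9, 76.8 and 77.6 RPM of DNA. Both loci had RNA hits almost only in the xenograft. The locus of Un_gl000224 (119727 to 179690) had 19.1, 33.4 and 24.995 RPM of RNA, from 3, 36 and 6 hits, and 4.59, 56.9 and 56.8 RPM of DNA. CER RNA on that contig had a ratio of culture after over the xenograft 19.1 times that of the other CER loci (3.87–121). This rests on few hits, as the contig held 6 of the 9 CER hits in RNA of culture after. In DNA, the ratio of the xenograft over culture before was 5.70 on chromosome 22, which was 0.532 times that of the other CER loci (0.392–0.728).

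**Figure D4:**
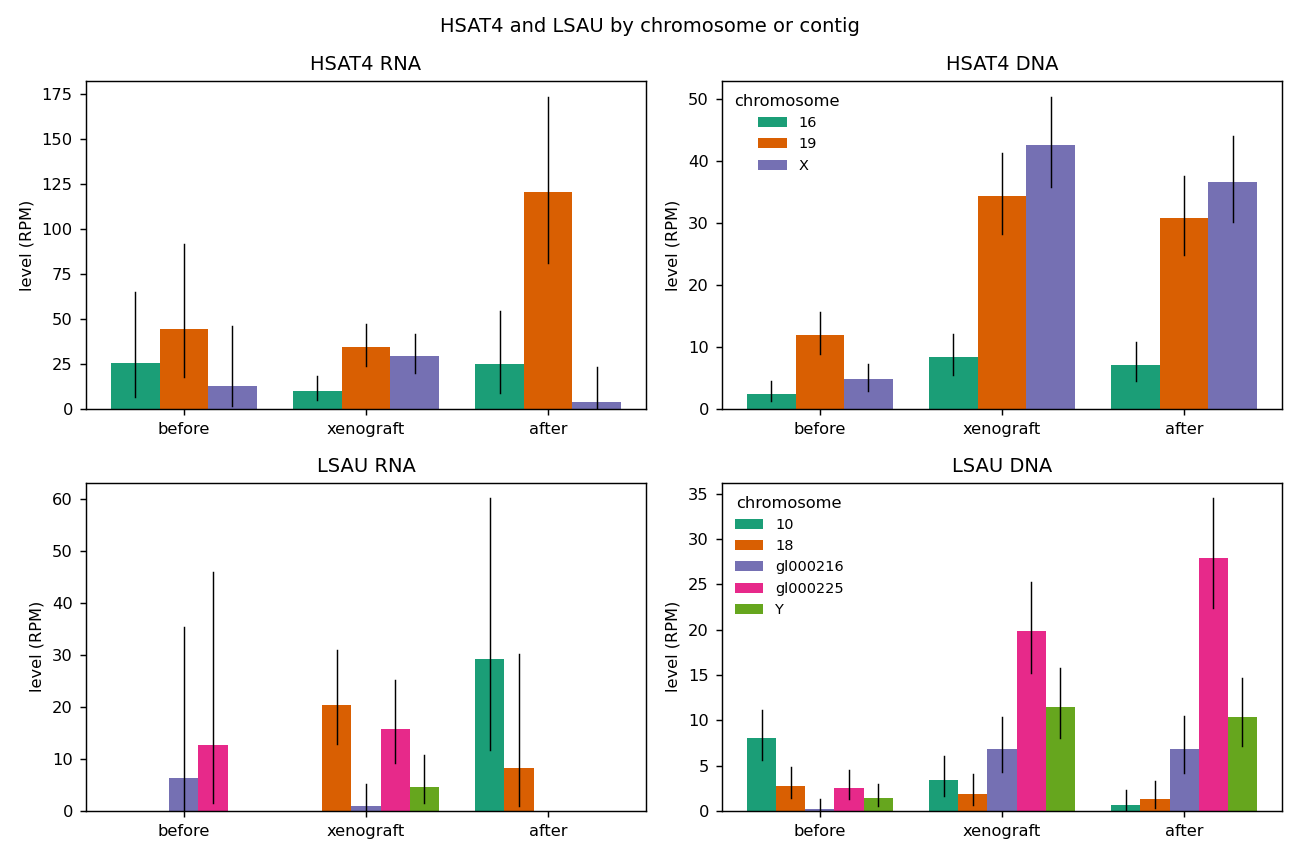
RPM of HSAT4 and LSAU by chromosome or contig in culture before, the xenograft and culture after, RNA left and DNA right. Bars are single libraries with exact Poisson 95% intervals. RNA of HSAT4 on chromosome 19 was at 44.5, 34.3 and 121 RPM, and DNA of LSAU on chromosome 10 at 8.04, 3.40 and 0.649 RPM.

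HSAT4 was the only 1 of the 6 families with a higher RNA level in culture after than in the xenograft, a reading that rests on chromosome 19. Its RNA had 13, 88 and 36 hits in culture before, the xenograft and culture after, or 82.6, 81.6 and 150 RPM. Its DNA had 89, 303 and 256 hits, or 20.4, 93.8 and 83.1 RPM. RNA of the xenograft and of culture before were not separated, at a ratio of 0.988 (0.549–1.93), while the other 18 families were 15.1 times as high. Relative to them, HSAT4 was at 0.0654 (0.0362–0.128), or at 0.127 (0.0696–0.250) without alpha satellite among them. Culture after was 1.84 times as high as the xenograft (1.21–2.74), but the interval held 1 under TMM scaling (1.15, 0.758–1.71), with size factors (1.38, 0.907–2.05) and with each array at its highest locus (1.66, 0.718–3.55). Relative to the other 18 families it was 10.3 times as high (6.74–15.3), or 4.91 times (3.23–7.34) without alpha satellite. DNA was 4.59 times as high in the xenograft as in culture before (3.61–5.88), or 0.560 times under TMM scaling (0.441–0.717). The ratio on the RPM scale was 0.396 times the ratio of the other 18 families (0.312–0.508), and culture after was not separated from the xenograft (0.886, 0.747–1.05).

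The higher HSAT4 RNA after xenografting lay on chromosome 19. An array of 28 loci between 28124937 and 28262528 had 7, 37 and 29 RNA hits in culture before, the xenograft and culture after, or 44.5, 34.3 and 121 RPM. HSAT4 on chromosome 19 was 3.52 times as high in culture after as in the xenograft (2.09–5.88), which was 5.71 times the ratio of the other HSAT4 loci (2.12–16.9). Without chromosome 19, an alternative added after seeing the data, the family's ratio was 0.616 (0.236–1.36), so both the direction and the separation rest on it. An array of 30 loci on chromosome X (58105083 to 58279731) had 2, 32 and 1 RNA hits, or 12.7, 29.7 and 4.17 RPM, and a ratio of culture after over the xenograft of 0.140 (0.00345–0.840). That was 0.0500 times the ratio of the other HSAT4 loci (0.0012–0.333). Both chromosomes also differed from the other HSAT4 loci in DNA of the xenograft over culture before, at 0.411 times their ratio on chromosome 19 (0.246–0.685) and 2.71 times on chromosome X (1.54–4.89). The chromosome 19 array had 52, 105 and 90 DNA hits in the 3 stages, with a ratio of the xenograft over culture before of 2.72 (1.93–3.87). The chromosome X array had 21, 137 and 112 DNA hits, with a ratio of 8.79 (5.53–14.7).

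Single HSAT4 loci were low. The locus of chromosome 19 at 28232790 to 28236728 had 19.1, 10.2 and 20.8 RPM of RNA and 4.36, 5.88 and 5.84 RPM of DNA in the 3 stages. The locus of chromosome 16 at 34918422 to 34926389 had 25.4, 5.57 and 16.7 RPM of RNA, and its DNA was at 0.918, 0.928 and 2.92 RPM. Its RNA thus exceeded its DNA in each stage, while the longest HSAT4 locus, 11644 bp on chromosome X (58219352 to 58230995), had 0, 3.71 and 0 RPM of RNA and 0.459, 6.50 and 5.84 RPM of DNA.

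LSAU had the lowest levels of the 6 families in the xenograft. Its RNA had 3, 50 and 9 hits in culture before, the xenograft and culture after, or 19.1, 46.4 and 37.5 RPM. Its DNA had 71, 192 and 164 hits, or 16.3, 59.4 and 53.2 RPM. None of its RNA ratios was separated from 1 by counting error: 2.43 for the xenograft over culture before (0.786–12.2) and 0.808 for culture after over the xenograft (0.349–1.66). Relative to the other 18 families these RNA ratios were 0.161 (0.0519–0.809) and 4.51 (1.95–9.28). Without alpha satellite among them both intervals held 1, at 0.312 (0.100–1.57) and 2.16 (0.933–4.45). DNA was 3.65 times as high in the xenograft as in culture before (2.76–4.86), or 0.445 times under TMM scaling (0.337–0.592). The ratio on the RPM scale was 0.315 times the ratio of the other 18 families (0.239–0.419).

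By hits summed over loci, LSAU near the end of the chromosome 10 long arm had less DNA in the xenograft than in culture before, unlike the family's sum. The 13 loci there (135478821 to 135499156) had 35, 11 and 2 DNA hits in culture before, the xenograft and culture after, or 8.04, 3.40 and 0.649 RPM, and 0, 0 and 7 RNA hits. DNA in the xenograft was 0.424 times that of culture before (0.194–0.853), which was 0.0625 times the ratio of the other LSAU loci (0.0265–0.142), and culture after held 0.191 times the xenograft level (0.0205–0.874). The hits were even over loci: the 35 DNA hits lay 5 each on 7 loci and the 7 RNA hits 1 each on 7 loci, which could be a few reads counted at several loci. No locus held more than 5, 2 and 2 DNA hits in the 3 stages. If reads were so repeated, the intervals above are too narrow and the stages may not be separated. Without chromosome 10, an alternative added after seeing the data, LSAU DNA was 6.78 times as high in the xenograft as in culture before (4.72–9.98), and RNA of culture after was 0.180 times that of the xenograft (0.0212–0.684). On chromosome 4, LSAU loci between 190942076 and 191014010 had 1, 13 and 11 DNA hits.

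Low counts went the same way between these libraries on chromosome 18, with 12, 6 and 4 DNA hits, and on chromosome 16, with 2, 1 and 0, and DNA was also lower in culture after than in the xenograft on Un_gl000228, with 0, 18 and 3 hits. The 30 loci of Un_gl000225 had 2, 17 and 0 RNA hits and 11, 64 and 86 DNA hits in the 3 stages, with a DNA ratio of 7.84 for the xenograft over culture before (4.10–16.5) and 1.41 for culture after over the xenograft (1.008–1.98). LSAU on chromosome Y had 6, 37 and 32 DNA hits, and its locus at 13489479 to 13489973 had 0.230, 3.40 and 3.90 RPM. The locus of chromosome 18 at 111676 to 112224 had the most RNA of the family, 0, 20.4 and 8.33 RPM, from 0, 22 and 2 hits. Its DNA was low, at 2.76, 1.86 and 1.30 RPM, and its RNA over DNA ratio in the xenograft was 11.0 (4.32–33.1).

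RNA was also set against DNA at each stage. In culture before, xenograft and culture after, the RNA over DNA ratio of ACRO1 was 13.4 (8.51–20.8), 0.717 (0.667–0.771) and 0.224 (0.158–0.308). HSAT4 was at 4.04 (2.07–7.27), 0.871 (0.679–1.11) and 1.80 (1.24–2.57). LSAU was at 1.17 (0.236–3.56), 0.781 (0.560–1.07) and 0.704 (0.316–1.37). CER was at 0.958 (0.455–1.79), 0.652 (0.587–0.723) and 0.0638 (0.0291–0.121). With 3 reads in place of the 0 hits of culture before, SAR was at 0.0842, 0.438 (0.407–0.471) and 0.00188 (4.77e-05–0.0105). On the same basis HSATI was at 5.54, 0.836 (0.713–0.977) and 0.0193 (0.000488–0.108). The exact upper limits in culture before were 0.104 for SAR and 7.72 for HSATI. The other 18 families were at 0.570, 0.744 and 0.126. The families thus lay between 0.438 and 0.871 in the xenograft, and spread more widely in both culture stages. The values of culture before share the DNA library that stood apart, and are given with that limit.

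**Figure D5:**
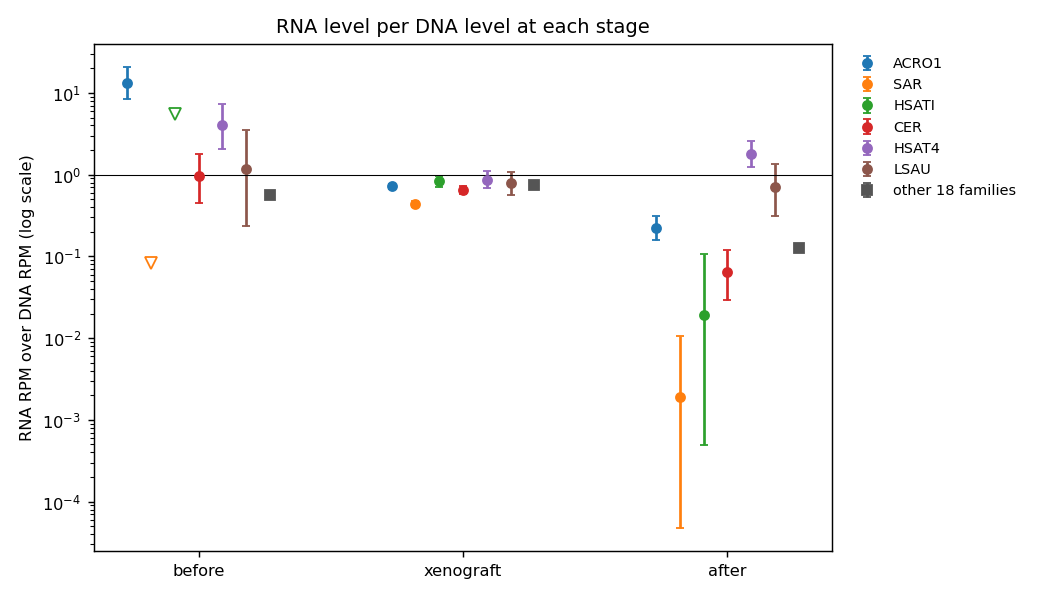
RNA RPM over DNA RPM of each family (log scale) in the 3 stages, with exact conditional binomial 95% intervals. Open triangles mark the 3-read limit of SAR and HSATI in culture before. The families lie between 0.438 and 0.871 in the xenograft, and between 0.00188 and 1.80 in culture after.

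Loci were also counted singly. A locus entered where either library held 20 RPM or more, and was called where RPM plus a pseudocount of 5 differed by at least 2-fold. In RNA of the xenograft over culture before, 22 of 28 member loci were higher and 2 lower, where 89.1% and 1.06% of all 377 satellite loci tested were higher and lower. In RNA of culture after over the xenograft, 0 of 27 were higher and 24 lower, beside 18.2% and 69.2% of 429 loci. In RNA of culture after over culture before, 0 of 6 were higher and 3 lower, beside 71.7% and 7.59% of 145. In DNA of the xenograft over culture before, all 28 of 28 were higher and none lower, beside 89.6% and 2.03% of 444, and 5 of 8 were higher under TMM scaling. In DNA of culture after over the xenograft, none of 29 passed in either direction, beside 0% and 0% of 473. In DNA of culture after over culture before, 24 of 24 were higher and none lower, beside 92.2% and 1.74% of 459, and 0 of 4 were higher under TMM scaling. In xenograft over culture before, 24 of the 28 loci in RNA and 27 of the 28 in DNA reached 20 RPM through the xenograft library only. In RNA of culture after over the xenograft, 25 of the 27 did so too, and 23 of the 24 in DNA of culture after over culture before entered through culture after only. A difference is likely by that choice, and the counts support nothing about the families. The counts under TMM scaling are given without the share over all loci.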

How the data were processed

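The authors deposited 1 table in RPM, 1 row per satellite locus and 1 column per library, on the hg19 build per the submitters' processing notes. RNA was prepared with TRIzol and DNA with a DNeasy kit, per the labels' protocols. Not given in the sources used here were the aligner, how multiply matching or mouse reads were treated, and the strand rule. In each library the smallest nonzero value was taken as 1 read; every other value was a whole number of it to within 0.01 reads, which gave hits and library totals. Family values are sums of hits. Intervals at 95% came from the conditional binomial (Clopper-Pearson) for ratios, the Poisson for levels and the conditional odds ratio for comparisons with other families or loci (SciPy 1.17.1). TMM scaling used edgeR 4.0.16 and size factors DESeq2 1.42.0, on hits, as alternatives only. Named were each family in every comparison, its 2 loci with the most RNA hits, its 2 with the most DNA hits, its longest locus, and chromosomes with at least 10% of its hits. The rule for members uses family names only and no measured value, but it and the lists were set with earlier results of these data known. Counting and intervals were tested on simulated data with known ratios. The simulated counts were independent, and unchanged loci had the same rate in both libraries. They held no difference in satellite share between libraries and no read counted at several loci. How the rule and the intervals fare where either occurs was thus not tested. At least 97.3% of intervals covered the true ratio in each comparison. The 2-fold rule called 0% of unchanged simulated loci in each DNA comparison, which does not vouch for DNA calls in the real libraries. In RNA it called 21.5% (xenograft over culture before), 12.8% (culture after over xenograft) and 31.6% (culture after over culture before), so RNA calls of single loci are uncertain. Gene annotation was not used here.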

Additional observations from a re-analysis of the deposited data

How the results depend on the processing

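With 1 library per stage, no result has a spread between cultures or animals. No paired analysis was possible because each group has 1 library and no replicate numbers. Depth limits RNA most, since 1 hit is worth 6.36 RPM in culture before and 0.928 RPM in the xenograft. Intervals that set a chromosome or contig against the rest of its family are not corrected for their number. For the xenograft over culture before, 2 of 12 in RNA and 9 of 19 in DNA lay off 1. For culture after over the xenograft, 3 of 18 and 2 of 19 did so.

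For the 6 families together, RNA of the xenograft over culture before was 4.50 with size factors and 4.23 without the locus with the most hits of each family. RNA of culture after over the xenograft was 0.104 with TMM scaling, 0.124 with size factors and 0.250 without those loci, and RNA of culture after over culture before was 0.590 (0.421–0.833) and 0.559 (0.399–0.789) with TMM and size factors, both below 1. DNA of the xenograft over culture before was 1.40 (TMM), 1.29 (size factors), 12.6 (totals without satellite hits) and 19.7 (without the top loci). DNA of culture after over culture before was 1.41, 1.30, 12.3 and 14.6 under the same settings. DNA of culture after over the xenograft was 1.011 with TMM and 1.014 with size factors, where both intervals held 1, and was 0.742 without the top loci. Size factors rest on 211 loci in RNA and 2704 in DNA.

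With TMM and size factors, the DNA ratio of the xenograft over culture before reversed to 0.560 and 0.516 for HSAT4, and 0.445 and 0.409 for LSAU. For SAR this ratio was 0.962 (0.899–1.03) with TMM, an interval that held 1, and 0.886 (0.828–0.949) with size factors. DNA of culture after over culture before reversed to 0.518 and 0.478 for HSAT4 and 0.416 and 0.384 for LSAU. HSAT4 RNA of culture after over the xenograft was 0.616 without chromosome 19. Counting identical loci once left all 34 family ratios within their intervals, and taking each array at its highest locus did so for 23 of 34. The cause of these shifts was not tested.

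Counts of member loci past 2-fold followed the minimum level. With no minimum, 55 of 188 member loci were higher and 6 lower in RNA of the xenograft over culture before. Over all 4467 loci these were 1014 and 83. With the count test (exact binomial, Benjamini-Hochberg at 5%), 9 of 28 were higher and 1 lower, beside 239 and 1 of all 377. RNA of culture after over the xenograft had 5 of 41 higher at a minimum of 10 RPM, beside 98 of all 706. With none, 7 of 197 were higher and 59 lower, beside 111 and 917 of all 4494. RNA of culture after over culture before had 3 of 15 higher at 10 RPM, beside 141 of all 249. Without a minimum, 6 of 81 were higher and 22 lower, beside 210 and 251 of all 879. TMM and size factors each gave 6 of 8 lower, beside 29 of all 136. The count test gave 0 of 6 lower, beside 5 of all 145. DNA of the xenograft over culture before had 5 higher with TMM, 4 with size factors, 52 at 10 RPM and 81 with no minimum. DNA of culture after over culture before had 0 higher with TMM, 0 with size factors, 44 at 10 RPM and 83 with no minimum. DNA of culture after over the xenograft had 2 lower with a pseudocount of 1 RPM, and 1 higher and 20 lower with the count test. These DNA counts are given without the share over all satellite loci, so they say nothing about the families.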
